A study of Mus musculus with 6 samples.

Results

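Cholecystokinin (Cck), its receptor genes and the genes of enzymes that cut and finish peptide hormones were followed in vascular smooth muscle cells cultured from mouse aorta. These cells form the muscular layer of arteries. The list names 9 genes by symbol: the hormone gene Cck, the receptor genes Cckar and Cckbr, the convertase genes Furin, Pcsk1, Pcsk5 and Pcsk6, the carboxypeptidase gene Cpe and the amidating enzyme gene Pam. The tables gave values for 8 of them among 25939 genes in all, and Cckbr was not analysed here. The list was chosen from results of the same comparison, in which Cck was among the genes lower after treatment. The difference between treated and control cells, and whether a member passed the threshold of the fit over all genes, is therefore given for the members as a description that supports nothing further.

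RNA was sequenced from 3 libraries of Control cells and 3 libraries of cells given trimethylamine N-oxide, an oxidised amine formed in the liver from trimethylamine released by gut bacteria and here called TMAO, each after 48 h. Both groups were isolated from aorta and differed only in TMAO as far as the labels say, which state neither the dose nor the strain and age of the mice. The samples are not said to come from separate animals or cultures, so every p-value measures the spread between these libraries, which may be technical. Levels are in FPKM, which divides a gene's fragments by its exon length and by the size of the library, so that genes can be compared. The implied totals ranged from 14991252 to 16806728 reads per library.

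Cholecystokinin is best known as a gut hormone that empties the gallbladder and stimulates pancreatic secretion, and as a neuropeptide of the brain. It is made as a precursor in the secretory pathway, where convertases cut after basic residues, carboxypeptidase E trims the exposed basic residues, and peptidylglycine alpha-amidating monooxygenase turns the glycine left at the end into an amide. A sulfate is added to a tyrosine before release. The finished peptide acts on the receptors encoded by Cckar and Cckbr, which couple to Gq proteins and phospholipase C.

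The stretch of Cck that carries these signals is printed below, and which convertase cuts there was not tested. Its lower case bases code for the last 8 residues of the hormone, and the capitals mark the codons that follow, for a glycine, which gives the amide, and for 2 arginines, the basic pair that is cut and trimmed. The stretch lies at chr9:121490098-121490130 on the minus strand of GRCm38 and comes from the GENCODE M21 transcript Cck-201. It is read in this frame in 2 of 6 annotated Cck transcripts.
Cck coding stretch: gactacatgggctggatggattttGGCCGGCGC

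The 250 bases before the RefSeq start of Cck, chr9:121495695-121495944 on the minus strand of GRCm38.p6, are shown because Cck is the member whose RNA differed most among those above the filter. Capitals mark the E-box CACGTG, whose first base lies 66 bases before the start, and CGTCA, one arm of the cAMP response element, 47 bases before it. Both strands were searched.
Cck upstream window: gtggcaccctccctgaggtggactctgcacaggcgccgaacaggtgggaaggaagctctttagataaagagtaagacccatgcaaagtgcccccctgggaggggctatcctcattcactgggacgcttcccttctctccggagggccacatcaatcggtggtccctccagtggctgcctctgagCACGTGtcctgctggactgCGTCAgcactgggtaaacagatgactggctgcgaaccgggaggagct

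Of 32851 RefSeq windows of this length in the mouse genome, 6.02% hold CACGTG and 17.8% hold CGTCA. The whole cAMP response element TGACGTCA, which contains CGTCA, occurred in 1.55% of windows and the AP-1 motif TGANTCA in 6.75%, and neither was in the Cck window. Among the other members, CGTCA was also present before Pcsk1, which holds the whole element, and before 1 of the Furin starts, and CACGTG before Cckbr. Windows were found for 7 of the 9 members. A match describes the letters only.

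Cck, the hormone gene, was abundant in these cells and was lower after TMAO. Its gene (ENSMUSG00000032532) spans positions 121489824 to 121495694 of chromosome 9 on the minus strand of GRCm38 in GENCODE M21, and its exons overlap no other annotated gene. The 3 Control libraries held 154, 157 and 162 FPKM. In the TMAO libraries the level was 107, 117 and 114 FPKM. Every TMAO library thus lay below every Control library, and the gap between the groups was wider than the range within either. The means were 158 ± 4.03 FPKM (SD, n = 3) and 112 ± 4.85 FPKM (SD, n = 3), a change of -28.6%. On log2(FPKM + 1) the fold change was -0.48 ± 0.046 (SE), and Cck was called, which here means a limma adjusted p under 0.05 among genes with at least 1 FPKM in 3 libraries. That call is among the values that chose the list and is no independent test. These values rest on 3013, 3086 and 3548 reads in Control and 2311, 2428 and 2224 reads in TMAO. The coefficient of variation within a group was 2.56% in Control and 4.31% in TMAO, where counting error alone gives 1.90%. By its mean over all 6 libraries Cck ranked 430 of 25939 listed genes. In bulk RNA, fewer cells that express a gene and less RNA per cell cannot be told apart.

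**Figure D1:**
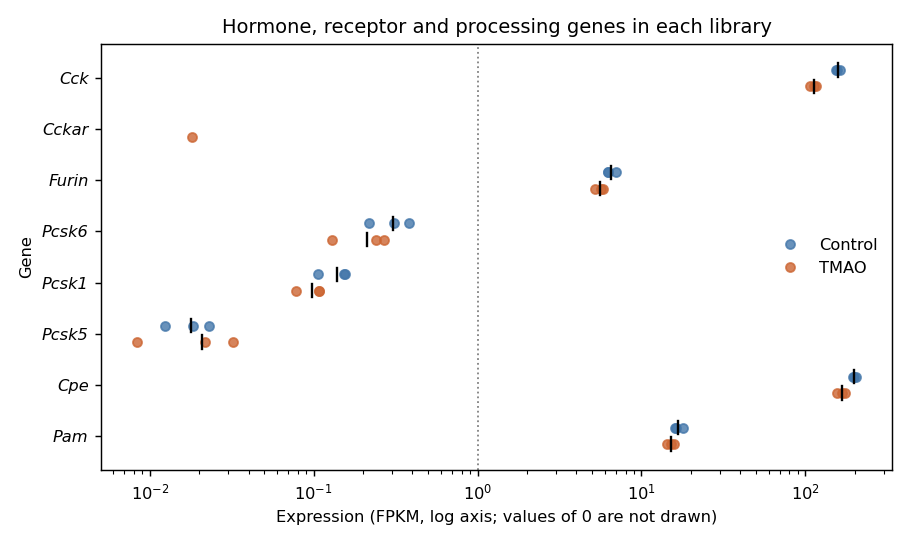
Expression of the 8 measured members in FPKM on a log axis, with 1 point per library, Control in blue and TMAO in orange, and a black tick at each group mean where no library was at 0. Cck and Cpe lay above 100 FPKM, Pam and Furin between 5 and 18 FPKM, and Cckar, Pcsk1, Pcsk5 and Pcsk6 left of the dotted line at 1 FPKM.

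RNA of Cckar, the receptor gene that was measured, was close to the limit of detection. Cckar, which encodes the receptor that prefers the sulfated hormone, had 0 reads in the 3 Control libraries and in TMAO 1 and TMAO 2. TMAO 3 held 1 read, or 0.0181 FPKM. With 0 reads, a library of this depth allows up to 3 reads, which is at most 0.0543 FPKM for the length of Cckar, and this limit covers counting error only. No difference in Cckar was detectable at this depth. Of 13 listed genes of Gq signalling, through which the receptors act, 9 reached the filter. The 4 that did not were Plcb1, Plcb2, Itpr1 and Rgs4. Among the 9, Gna11, a Gq family subunit, had Control and TMAO means of 13.7 ± 0.403 and 13.4 ± 0.558 FPKM (SD, n = 3; limma adjusted p = 0.897).

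Of the convertases, Furin was the only member above 1 FPKM. Furin (ENSMUSG00000030530, chromosome 7, 80388585 to 80405436, minus strand) encodes the widely expressed convertase of the trans-Golgi network. Its levels were 6.26, 7.01 and 6.21 FPKM in Control and 5.85, 5.66 and 5.18 FPKM in TMAO. The groups did not overlap, although the gap between them was smaller than the range inside either group. The log2 fold change was -0.19 ± 0.072 (SE), and Furin was not called. Of its exon bases 1.29% are shared with Gm44851 on the opposite strand.

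The convertase genes Pcsk1, Pcsk5 and Pcsk6 were scarce. Pcsk1, the convertase of endocrine granules, had 13, 13 and 10 reads in Control and 10, 7 and 9 in TMAO, and its levels stood between 0.0783 and 0.154 FPKM. Pcsk6, a convertase that binds the cell surface and matrix, had 17, 30 and 27 reads in Control and 23, 20 and 10 in TMAO. Its level was 0.304 ± 0.0829 FPKM in Control and 0.213 ± 0.0742 FPKM in TMAO (SD, n = 3). For Pcsk5, the related convertase, the libraries held 5, 4 and 3 reads in Control and 2, 5 and 7 in TMAO. The groups overlapped for all 3 genes, and none reached the filter of 1 FPKM in 3 libraries. Of the exon bases of Pcsk6, 3.01% are shared with Gm45213 on the same strand.

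Within each library Furin made up most of the RNA of the convertases that cut at basic sites. Its share of the summed FPKM of Furin, Pcsk1, Pcsk4, Pcsk5, Pcsk6 and Pcsk7 was 62.6%, 60.3% and 62.6% in Control and 56.6%, 61.1% and 58.7% in TMAO. TMAO 2 lay inside the Control range, so the shares overlapped. Pcsk7, a convertase that cycles through the trans-Golgi network, was second, with Control and TMAO means of 3.28 ± 0.375 and 3.25 ± 0.390 FPKM (SD, n = 3).

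Carboxypeptidase E and the amidating enzyme, which act after the convertases, were both well above the filter. Cpe (ENSMUSG00000037852, chromosome 8, 64592542 to 64693054, minus strand) was the most abundant member. Control libraries stood at 195, 205 and 198 FPKM and TMAO libraries at 175, 156 and 168 FPKM. All TMAO values were below all Control values, with means of 199 ± 5.24 and 167 ± 9.64 FPKM (SD, n = 3), a change of -16.4%. The log2 fold change was -0.26 ± 0.050 (SE). Cpe was not called with the main filter. It was called when genes needed a mean of 5 FPKM, where 50 of 6084 genes were called. With voom on recovered reads, where 97 of 10893 genes were called, Cpe was called too.

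Pam (ENSMUSG00000026335, chromosome 1, 97795114 to 98095646, minus strand) encodes the enzyme that amidates peptides ending in glycine. Its levels were 16.2, 17.9 and 16.1 FPKM in Control and 15.7, 14.3 and 15.1 FPKM in TMAO. TMAO 1 was the highest of its group and lay just under the lowest Control library, so that the groups barely separated. The log2 fold change was -0.14 ± 0.061 (SE), and the gene was not called. Without Control replicate 2 it was -0.095, the smallest value among the alternatives. Of its exon bases 1.58% are shared with B230216N24Rik on the same strand.

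**Figure D2:**
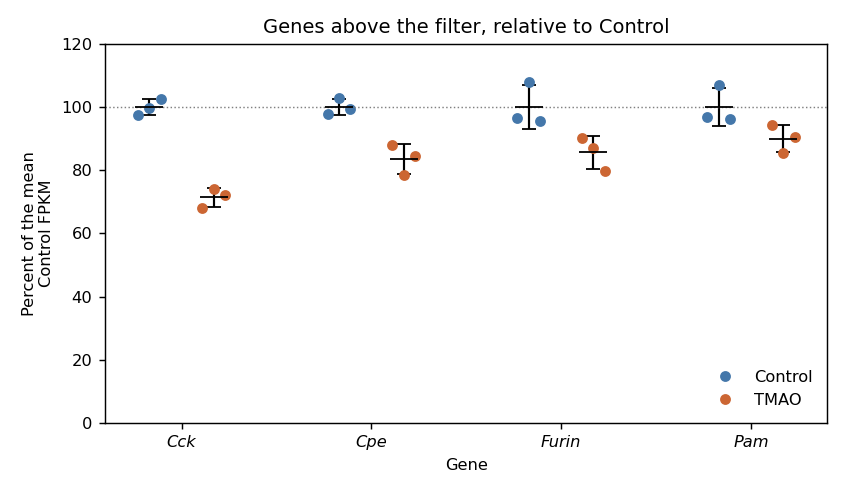
FPKM of the 4 members above the filter as a percentage of the gene's Control mean, with 1 point per library, Control in blue and TMAO in orange, bars at the mean and whiskers of 1 SD (n = 3). The TMAO points lie below the Control points for each gene, with the widest gap for Cck and the narrowest for Pam.

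Set side by side, all 4 members above the filter had negative log2 fold changes, as had 4424 of all 11062 tested genes. The median of the members was -0.22 beside 0.02 over all tested genes. Of these 4 genes 1 was called, Cck. Over all tested genes 20 were called by limma at an adjusted p under 0.05, which is 0.181%, and 12 of them were lower, 0.108%. The 8 higher and 12 lower genes became 7 and 18 after quantile normalization. The split turned to more higher than lower genes with the replicate block, at 12 and 10, and when any library but TMAO 3 was left out. It was then 14 and 8, 12 and 8, and 8 and 3 without Control replicates 1, 2 and 3, and 8 and 4 and 42 and 14 without TMAO replicates 1 and 2. All 4 lay with every TMAO library below every Control library. This happened for 689 tested genes or 6.23%, while 1375 genes or 12.4% lay above. Because Cck was selected on this contrast, and the list was put together around it, nothing is read from these counts. No tested member changed sign in any of 14 alternatives. The call of Cck was lost in 1 of them, the fit with no filter on low values, in which 0 of 25939 genes were called.

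**Figure D3:**
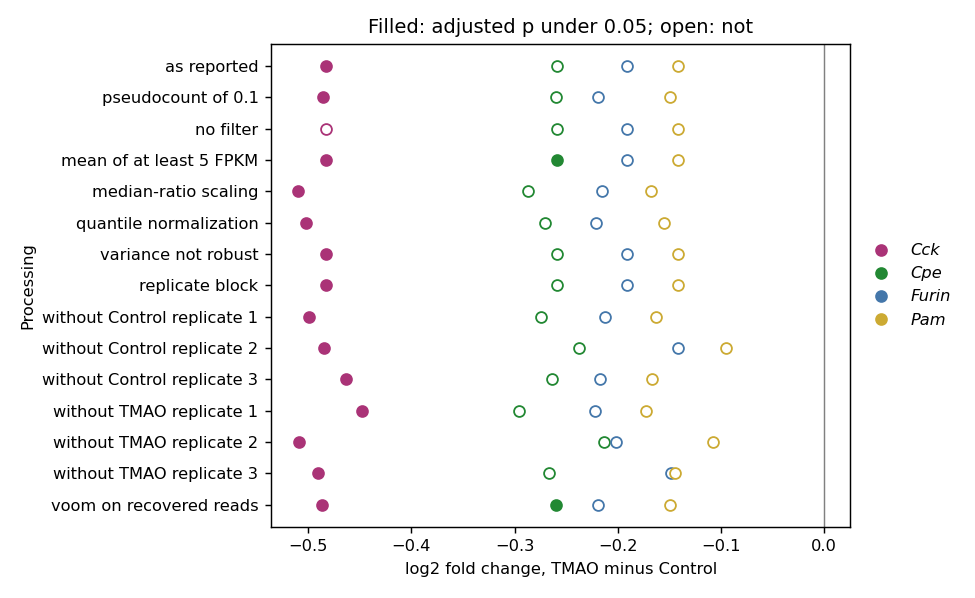
Log2 fold change (TMAO minus Control) of Cck, Cpe, Furin and Pam as reported and under 14 alternatives of processing, filled where the limma adjusted p was under 0.05. Cck stays between -0.51 and -0.45 and is open only with no filter, while Cpe is filled for 2 alternatives and Furin and Pam for none.

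The hormone RNA was lower relative to that of Cpe and Pam. Because the list was chosen with Cck lower, these ratios partly restate that difference and support nothing further. Cck divided by Cpe in the same library was 0.789, 0.765 and 0.817 in Control and 0.611, 0.747 and 0.676 in TMAO. The ratio in TMAO 2 was just under the lowest Control ratio, so the groups separated narrowly. Cck divided by Pam ranged from 8.78 to 10.1 in Control and from 6.80 to 8.16 in TMAO. A ratio of this kind shows unequal change only.

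Some measures over many genes did not overlap between the groups. Genes above 0 FPKM numbered 19299 to 19966 in Control and 20349 to 20844 in TMAO. The list of fibroblast markers had a summed level of 1121 to 1158 FPKM in Control and 1040 to 1084 FPKM in TMAO. Most of this sum came from Gsn and Ly6a, and for each of them the groups overlapped. Every TMAO library lay below every Control library for 1 of the 7 tested markers, Col1a1, beside 6.23% of all tested genes. Of the list's 7 tested genes 5 had negative log2 fold changes and 0 were called, and 3 had an unadjusted p under 0.05. Over all 11062 tested genes 4424 were negative and 1448 had such a p. The part of these differences in the levels of Cck, Cpe, Furin and Pam was not tested.

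Markers of cell types were summed in the same libraries. In the neuronal and neuroendocrine list 9 of 11 measured genes were below 1 FPKM in every library, and chromogranin A (Chga) was listed at 0 in 5 libraries and at 0.0242 FPKM in Control 1. The list summed to 38.8 FPKM in each Control library and to 37.4 to 39.4 FPKM in TMAO, nearly all of it from Uchl1 and Tubb3. All 6 measured endothelial markers were below 1 FPKM, with sums of 0.532 to 0.589 FPKM in Control and 0.581 to 0.738 FPKM in TMAO. Macrophage markers summed to 80.8 to 101 FPKM in Control and 79.3 to 87.0 FPKM in TMAO, most of it from Lyz2. Of the 8 measured macrophage markers 4 were below 1 FPKM in every library. Of the smooth muscle markers, Acta2 was at 476 to 493 FPKM, while Tagln, Myh11 and Cnn1 were below 1 FPKM in every library. Tagln shares 67.9% of its exon bases with Pcsk7 and Gm48529 on the opposite strand, so its level is uncertain. The smooth muscle list summed to 687 to 695 FPKM in Control and 675 to 690 FPKM in TMAO. The fibroblast list summed higher, to 1040 to 1158 FPKM over the 6 libraries. The identity of the cells was not tested beyond these levels.

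Further genes of peptide processing and secretion were described from 9 lists, with 74 tested genes in all. Of these, 0 were called by limma or by voom, beside 0.181% of all tested genes with limma and 97 of 10893 with voom. An unadjusted p under 0.05 was found with limma for 9 of the 74, beside 1448 of all 11062 tested genes, a similar share. Their median log2 fold change was -0.0048, with 40 genes below 0 and 34 above. Over all 11062 tested genes 4424 were below 0 and 6638 above. All TMAO libraries lay below all Control libraries for 9 of the 74 and above them for 5, where the shares over all tested genes were 6.23% and 12.4%. In each pair of means that follows, Control comes first and TMAO second. Pcsk7, Qpctl, Ctsb, Fbn1 and Ctsl share 10.1% to 26.8% of their exon bases with other annotated genes, so their values are less certain.

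The other convertases included 3 tested genes, all with negative log2 fold changes, beside 4424 of all 11062 tested genes. Their median was -0.10. Mbtps1, the site-1 protease, stood at 7.97 ± 0.384 and 7.38 ± 0.578 FPKM (SD, n = 3; limma adjusted p = 0.595). Pcsk4 was below the filter, at 0.221 to 0.337 FPKM in Control and 0.212 to 0.409 FPKM in TMAO.

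The list of chaperones, inhibitors and sorting factors of convertases had 5 of 5 tested genes above 0, beside 6638 of all 11062 tested genes. Its median log2 fold change was 0.08, and 0 were called. Tgoln1, a protein of the trans-Golgi network, was at 32.7 ± 1.68 and 35.2 ± 2.95 FPKM (SD, n = 3; limma adjusted p = 0.562). Pacs2, a sorting factor, stood at 8.87 ± 1.07 and 9.60 ± 0.483 FPKM (SD, n = 3; limma adjusted p = 0.620). Serpina3n, a serine protease inhibitor, stood at 188 ± 3.73 and 195 ± 5.97 FPKM (SD, n = 3; limma adjusted p = 0.639). The granule partners of the endocrine convertases were scarce. Pcsk1n, which encodes the inhibitor of the Pcsk1 product, was at 0.0286 to 0.121 FPKM, and Scg5, a chaperone of such convertases, was at 0.0846 to 0.569 FPKM.

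Other carboxypeptidases had 3 tested genes with a median log2 fold change of -0.10 and 0 called. Cpe accounted for 94.7% to 96.1% of the summed FPKM of Cpe, Cpd, Cpm, Cpz and Cpn1 in every library, and Cpd made up nearly all of the rest. This sum took active carboxypeptidases only and left out Aebp1, Cpxm1 and Cpxm2. Cpd, a carboxypeptidase of the trans-Golgi network, stood at 8.89 ± 0.950 and 8.62 ± 0.935 FPKM (SD, n = 3; limma adjusted p = 0.895). Aebp1, a relative of the carboxypeptidases that acts in the matrix, was at 80.5 ± 6.53 and 73.5 ± 6.67 FPKM (SD, n = 3; limma adjusted p = 0.523). Cpxm1, another relative, was at 3.16 ± 0.1605 and 2.91 ± 0.504 FPKM (SD, n = 3; limma adjusted p = 0.740).

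Among the 9 enzymes that modify or trim peptides, 5 were below 0 and 0 were called. Tpst2, a tyrosylprotein sulfotransferase of the kind that sulfates cholecystokinin, had 15.4, 16.8 and 16.4 FPKM in Control and 14.0, 14.2 and 14.0 FPKM in TMAO. Every TMAO library was below every Control library, and the log2 fold change of -0.19 ± 0.054 (SE) did not pass (limma adjusted p = 0.183). Its relative Tpst1 had overlapping groups, at 13.05 ± 0.417 and 12.3 ± 0.435 FPKM (SD, n = 3; limma adjusted p = 0.572). Qpctl, a glutaminyl cyclase of the Golgi, stood at 2.81 ± 0.183 and 2.37 ± 0.236 FPKM (SD, n = 3; limma adjusted p = 0.389). Cathepsin L (Ctsl), a protease that also cuts prohormones, was at 165 ± 5.95 and 163 ± 10.6 FPKM (SD, n = 3; limma adjusted p = 0.929). Cathepsin B (Ctsb) was at 109 ± 2.62 and 109 ± 7.39 FPKM (SD, n = 3; limma adjusted p = 0.980).

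Enzymes that degrade peptides had 8 tested genes, a median log2 fold change of -0.0048 and 0 called. Tpp2, a peptidase known to inactivate cholecystokinin, stood at 15.5 ± 0.134 and 16.7 ± 1.26 FPKM (SD, n = 3; limma adjusted p = 0.567). Ece1, which encodes endothelin-converting enzyme, was at 10.3 ± 1.31 and 9.08 ± 0.752 FPKM (SD, n = 3; limma adjusted p = 0.460). Ace, angiotensin-converting enzyme, was at 22.9 ± 1.69 and 21.2 ± 1.35 FPKM (SD, n = 3; limma adjusted p = 0.523). Enpep, an aminopeptidase, was below the filter at 0.152 to 0.311 FPKM.

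Of 17 measured secretory granule genes 12 did not reach the filter, and 0 of the other 5 were called. Vamp2, a vesicle SNARE, had 4.598, 4.72 and 4.94 FPKM in Control and 7.07, 5.25 and 5.81 FPKM in TMAO. All TMAO libraries were above Control, with TMAO 1 apart from the others, and the log2 fold change of 0.28 ± 0.092 (SE) did not pass (limma adjusted p = 0.230). Without TMAO replicate 1 it was 0.18. Rab3a, a GTPase of secretory vesicles, was at 1.73 ± 0.403 and 2.10 ± 0.254 FPKM (SD, n = 3; limma adjusted p = 0.503). Ptprn, a granule membrane protein, stood at 4.61 ± 0.139 and 4.29 ± 0.196 FPKM (SD, n = 3; limma adjusted p = 0.655). Dnajc5, a vesicle chaperone, was at 12.6 ± 0.522 and 13.3 ± 0.623 FPKM (SD, n = 3; limma adjusted p = 0.711).

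Among genes for other peptide hormones, 7 were tested, 4 of them below 0, and 0 were called. Adm, the vasodilator adrenomedullin, another amidated peptide, had 49.3, 49.6 and 51.5 FPKM in Control and 54.9, 52.9 and 55.9 FPKM in TMAO. It lay above Control in every TMAO library, the opposite side from Cck, with a log2 fold change of 0.12 ± 0.044 (SE) that did not pass (limma adjusted p = 0.285). Calcb, calcitonin gene-related peptide beta, had 11.7, 11.4 and 13.04 FPKM in Control and 10.7, 8.88 and 10.98 FPKM in TMAO (limma adjusted p = 0.277). Neuropeptide Y (Npy) was at 7.02 ± 1.53 and 6.35 ± 0.607 FPKM (SD, n = 3; limma adjusted p = 0.798). Cck made up 65.7%, 66.6% and 66.0% of the summed FPKM of the 25 measured hormone genes in Control. In TMAO its share was 56.3%, 59.0% and 56.8%, and the groups did not overlap. Cck is most of this sum and the list was chosen with Cck lower, so the share largely restates that difference.

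Substrates of furin-like convertases and genes of Gq signalling showed no called gene either. Of 25 tested substrates 13 were below 0, with a median log2 fold change of -0.02. Sdc4, a syndecan, had 50.4, 58.2 and 58.3 FPKM in Control and 49.9, 42.9 and 48.9 FPKM in TMAO (limma adjusted p = 0.233). Adamts5, an aggrecanase, was at 29.1 ± 2.17 and 25.8 ± 2.29 FPKM (SD, n = 3; limma adjusted p = 0.354), and fibrillin-1 (Fbn1) at 21.3 ± 2.63 and 17.9 ± 2.05 FPKM (SD, n = 3; limma adjusted p = 0.367). Of 9 tested Gq genes 5 were below 0. Rgs2, a brake on Gq proteins, was at 36.2 ± 0.654 and 33.6 ± 1.08 FPKM (SD, n = 3; limma adjusted p = 0.372). Plcb3 and Plcb4, which encode phospholipase C enzymes, were at 5.05 ± 0.270 and 5.53 ± 0.110 FPKM (SD, n = 3; limma adjusted p = 0.527) for the first and 3.92 ± 0.231 and 3.54 ± 0.176 FPKM (SD, n = 3; limma adjusted p = 0.561) for the second.

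**Figure D4:**
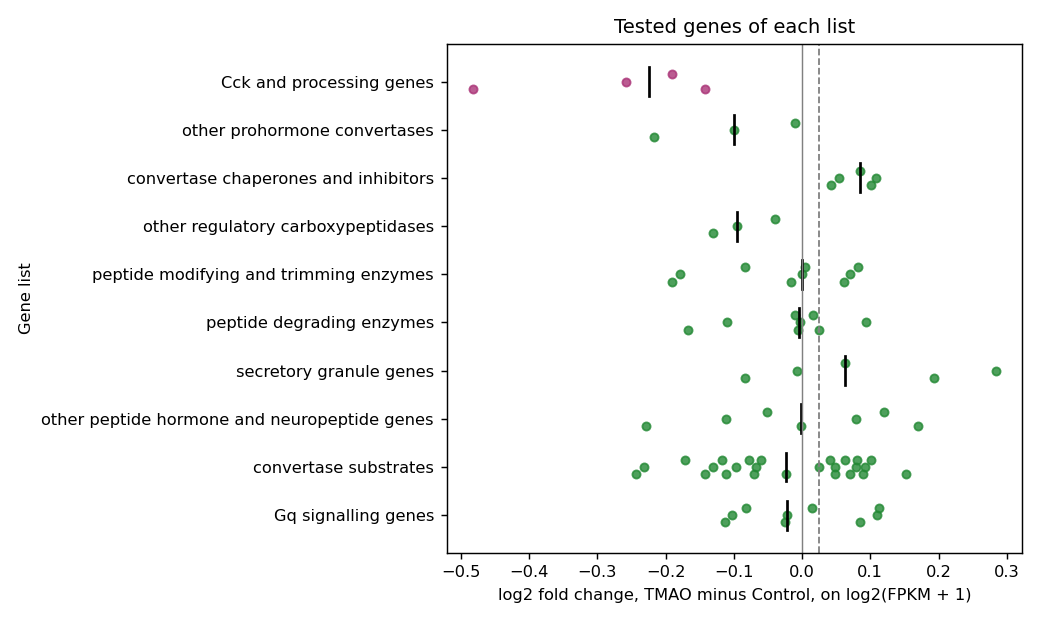
Log2 fold change (TMAO minus Control, on log2(FPKM + 1)) of every tested gene in each list, 1 point per gene, with a black bar at the list's median and a dashed line at the median of all 11062 tested genes, 0.02. Cck lies farthest left at -0.48, and Vamp2 farthest right at 0.28.

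Genes with a profile like that of Cck were ranked by Pearson's r with Cck over the 6 libraries on log2(FPKM + 1). The ranking took 3747 genes with a mean of at least 10 FPKM that are not predicted gene models. These r values share the same libraries and follow mainly the difference between the groups, so they are a description. Ccl7, a chemokine, came first with r = 0.997, with means of 65.3 ± 0.720 FPKM in Control and 54.5 ± 0.958 FPKM in TMAO (SD, n = 3). Gas1, a membrane protein of Hedgehog signalling, had r = 0.995 and the kinetochore gene Spc25 r = 0.994. Tprgl had r = 0.984, with means of 42.1 ± 0.868 FPKM in Control and 36.9 ± 0.325 FPKM in TMAO (SD, n = 3), and osteopontin (Spp1) r = 0.979. Of these 5 genes Ccl7 and Spc25 stayed among the first 5 in all 7 alternatives of the ranking, Gas1 in 6, Tprgl in 1 and Spp1 in 0. Of the members, Cpe and Pam were less like Cck, with r = 0.868 and 0.688, at ranks 113 and 401. Furin had r = 0.779 and was not among the ranked genes, because its mean was 6.03 FPKM.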

How the data were processed

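The authors deposited FPKM values, 1 table per library, per the file headers; the header of Control 1 spells the unit PKM. Libraries were made from total RNA with a stranded mRNA kit, per the labels' protocols. Per the submitters' processing notes, which give no versions, the tools were Trimmomatic, HISAT2, Cufflinks and HTSeq and the build mm10, and the strand setting of the counting is not given in the sources used here. Groups came from the sample titles.

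Exon lengths of GENCODE M21 and 1 total per library turned the FPKM of 25499 genes, 98.5% of those with a length, into whole reads within 0.01 reads. No 2 libraries agreed within sampling noise (chi-square per degree of freedom 3.11 to 14.6). By this measure Control 1 was nearer to TMAO 3 (6.58) and TMAO 2 (7.31) than to Control 2 (7.90) and Control 3 (9.50). Every other library was nearest to a library of its own group. Genes that reached 1 FPKM in 3 or more libraries were compared with limma 3.58.1 in R 4.3.3 on log2(FPKM + 1), with trended, robust variance and Benjamini-Hochberg adjustment over all 11062 tested genes. Fold changes on this scale understate low genes. The code was tested on simulated data. Python 3.11.15 prepared tables and figures.

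The members and gene lists, and how genes were picked for naming, were settled with earlier results of these data known. Named were all members, from each list the 3 tested genes with the smallest p and the 2 with the highest level, and the 5 genes most like Cck that are not predicted gene models. Markers, and genes below the filter that are named with their values, fall outside it. Of the genes this rule takes, 2 are not reported here. Alternatives were another pseudocount, 2 filters, 2 scalings, a variance that is not robust, the replicate block, voom on recovered reads and each library left out. The likeness alternatives were added after seeing the data. Sequences came from GENCODE M21 and, for promoter windows, from RefSeq on GRCm38.p6, and 8 of 9 members were matched to the tables by symbol.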

Additional observations from a re-analysis of the deposited data

How the results depend on the processing

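The count of 20 called genes became 0 with no filter, 50 with a mean of at least 5 FPKM and 97 with voom on recovered reads. With 1 library left out it ranged from 11 (without Control replicate 3) to 56 (without TMAO replicate 2), and was 12 without TMAO replicate 1. Quantile normalization gave 7 higher and 18 lower genes beside 8 and 12. Called members numbered 0 with no filter and 2 (Cck and Cpe) with a mean of at least 5 FPKM or voom, and 1 with each library left out. The log2 fold change of Cck ranged from -0.51 to -0.45 over 14 alternatives. Pathway genes called stayed at 0 in all 14. Replicate numbers did not pair the libraries, with correlations of deviations of -0.086, -0.10 and 0.056 for numbers 1 to 3, and not every library correlated best with its own number. The replicate block called 22 genes, 1 member (Cck) and 0 pathway genes. With 1 library left out, log2 fold changes near 0 changed sign for 6 uncalled genes: Pcsk7 from -0.085 to 0.061, Cpxm1 from -0.16 to 0.016, Cpd from -0.12 to 0.012, Ctsl from -0.061 to 0.033, Ctsb from -0.035 to 0.059 and Gna11 from -0.051 to 0.0050. Ctsb was also -0.024 with median-ratio scaling and -0.0049 with quantile normalization. The causes were not tested. Pcsk7, Cpxm1, Qpctl, Rab3a, Ptprn and Plcb4 gave no value under the stricter filter, which they do not reach. Depth limits Cckar, Pcsk1, Pcsk5 and Pcsk6, which had at most 30 reads in a library.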
